A study of Mus musculus with 37 samples.

Results

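The genotype difference in the response of the mouse mammary gland to late pregnancy was measured gene by gene as an interaction on the log2 scale, the day 15 response of PTP1B knockout (KO) glands minus the day 15 response of wild type (WT) glands. The day 15 response of a genotype is its P15 mean minus its P0 mean, P15 being day 15 of pregnancy and P0 the nulliparous state. The arrays were chosen by the genotype and stage in their titles, with 4 each of KO P15, KO P0, WT P15 and WT P0, 16 of the 37 in the series. Total RNA of whole mammary glands was amplified, labelled as sense-strand cDNA and hybridised to Affymetrix whole-transcript arrays, 1 gland sample per array. KO mice were PTP1B-/-, from a line first described by Klaman and colleagues and crossed to FVB for at least 7 generations, and the WT mice were given with the same FVB background. The females of all 4 groups were untreated, mating was at 12 weeks of age, pregnancy was timed from a vaginal plug, and P0 females had been with a male overnight and were taken in oestrus. The labels do not say whether replicates came from separate mice or whether WT mice were littermates of KO mice, so the p-values measure the spread between these samples, which may be technical. The study, by its title, asks how loss of PTP1B changes the growth and maturation of the gland.

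PTP1B, the product of Ptpn1, is a tyrosine phosphatase that removes phosphate from the insulin receptor and from JAK2, the kinase that couples the prolactin receptor to STAT5. During pregnancy, progesterone drives branching of the mammary epithelium, and prolactin with progesterone drives the formation of milk-producing alveoli, which fill a pad of white fat that in young mice also holds brown fat cells. In bulk samples such as these fewer cells of a type and less RNA per cell cannot be told apart.

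Ptpn1 (probe set 10478897) lay at 5.71, 5.40, 8.68 and 5.36 in KO P15 glands and 5.75, 5.71, 6.49 and 5.55 in KO P0 glands, against 8.62, 8.02, 8.94 and 8.50 in WT P15 glands and 8.70, 8.75, 9.06 and 8.61 in WT P0 glands. The array labelled KO P15 replicate 3 had the level of WT glands, the other 7 KO arrays lay below all WT arrays, and KO P0 replicate 3 was the highest of those 7. Results are therefore also given without KO P15 replicate 3, where the Ptpn1 interaction was -0.12 (adjusted p = 0.815). WT P0 replicates 2 and 4 also stood apart. The pan-epithelial list score, the mean of centred log2 values over the epithelial markers, was 0.30 in WT P0 replicate 2 and between -0.93 and -0.54 in the other WT P0 arrays, while its brown adipocyte score was -1.04, against 1.09 to 1.95 in the others. The skeletal muscle score was 4.40 in WT P0 replicate 4 and between -0.61 and 0.28 in all the other 15 arrays. Array medians lay at 6.647 to 6.717 in KO P15, 6.519 to 6.577 in KO P0, 6.758 to 6.786 in WT P15 and 6.561 to 6.603 in WT P0 glands, the WT medians being further apart between stages than the KO medians. All 19 measured pan-epithelial and all 15 measured myoepithelial markers passed the filter on dim values. In each genotype 22 of 24 milk protein and secretion genes were called up at P15. Among all tested genes 19.5% were called up in KO and 21.6% in WT glands.

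In 1704 of 16865 tested genes, 10.1%, the day 15 response differed between genotypes at a limma adjusted p below 0.05. The interaction was positive in 810 of them, 4.8% of the tested genes, and negative in 894, 5.3%, and the median over all tested genes was 0.04. A positive interaction means that the KO response lay above the WT response, and an interaction of 1 that the KO ratio of P15 over P0 was 2 times the WT ratio. An interaction above 1 was found in 56 of the called genes and one below -1 in 162. Without KO P15 replicate 3 the called genes numbered 1616, 9.58% of the tested, with 730 positive (4.33%) and 886 negative (5.25%), and 1420 genes were called in both fits. Of 1704 genes, 946 were called in each of the 16 fits that left out 1 array. The balance of the directions depends on scaling: 47.5% of the called genes were positive on the deposited values, 62.9% after each array was centred on its median (1065 positive and 627 negative) and 62.1% after a further quantile normalisation (1324 and 808). Leaving out WT P0 replicate 2 raised the count to 2598 genes, 1265 of them positive.

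The day 15 response itself was called in 6962 genes of KO glands, 41.3%, with 3287 up (19.5%) and 3675 down (21.8%), and in 8238 genes of WT glands, 48.8%, with 3641 up (21.6%) and 4597 down (27.3%). Genes called in the interaction fell into classes by these calls. The most populated class, 417 genes, was called down in WT glands and not called in KO glands. A further 307 genes were called up in WT alone, 287 down in KO alone and 216 up in KO alone. Opposite responses were called in 69 genes up in KO and down in WT and in 49 genes down in KO and up in WT. In the others both genotypes moved the same way, with 113 down further in KO, 64 down further in WT, 130 up further in WT and 35 up further in KO, while in 17 genes neither response was called. Without KO P15 replicate 3, 311 of the 417 genes down in WT alone kept their interaction call, as did 250 of the 287 down in KO alone and 68 of the 69 up in KO and down in WT.

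**Figure D1:**
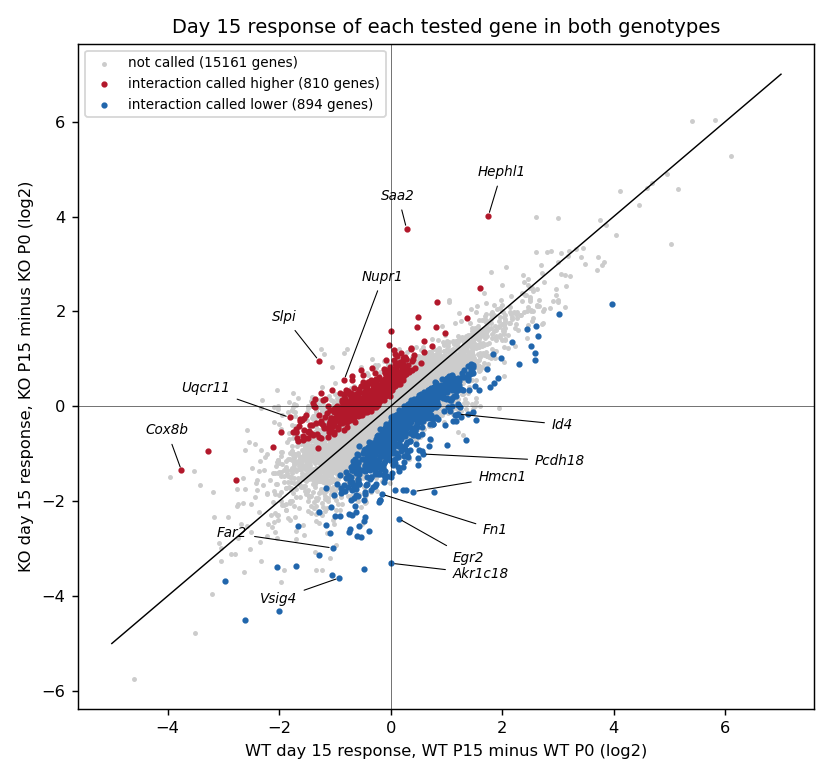
Day 15 response in KO glands (vertical axis, log2) against that in WT glands (horizontal axis, log2) for each of 16865 tested genes, with the interaction called positive in red, called negative in blue and not called in grey, and with equal responses on the diagonal. Called genes lie on both sides of the diagonal, such as Saa2 at a KO response of 3.74 and a WT response of 0.29, and Akr1c18 at -3.31 and 0.01.

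The same interaction can be read by stage. The genotype difference, KO minus WT, was called at P15 in 1873 genes, 11.1% of the tested, and at P0 in 286 genes, 1.7%, with 215 higher (1.27%) and 71 lower (0.421%) in KO glands. Of the 1704 interaction genes, 1051 were called different at P15 and 186 at P0, 40 at both stages and 507 at neither. The genotypes were further apart at P15 than at P0 in all but 500 of the 1704 genes, and those 500 comprised 371 of the negative and 129 of the positive genes. The interaction is the difference of the 2 genotype differences, so these counts describe the genes and are not independent of how they were chosen.

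Subunits of the mitochondrial respiratory chain and ATP synthase fell at day 15 in WT glands, while few were called in KO glands. Of 31 tested genes of the respiratory chain list, 1 was called down and 1 up in KO glands, against 26 down and none up in WT glands. Over all tested genes 21.8% were called down and 19.5% up in KO glands, and 27.3% down and 21.6% up in WT glands. In the interaction 11 of the 31 were called positive and none negative, 35.5% against the 4.8% of all tested genes, and the list median was 0.52, all 31 estimates being above 0. The median response was -0.06 in KO and -0.59 in WT glands. At P15 itself 7 of the 31 were higher in KO than in WT glands (6.78% of all tested genes were), and at P0 none was called. The median genotype difference was 0.24 at P15 and -0.28 at P0, so the list median of the interaction draws on both stages.

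Uqcr11, a small subunit of complex III that was not in the list, lay at 10.23, 10.50, 10.93 and 10.44 in KO P15 glands and 10.75, 10.69, 10.74 and 10.87 in KO P0 glands, against 9.20, 9.01, 9.36 and 9.06 in WT P15 glands and 11.11, 10.81, 10.97 and 11.00 in WT P0 glands. The WT P15 arrays lay below all other 12 arrays, and KO P15 replicate 3 was the only KO P15 array above KO P0. Its interaction was 1.58 ± 0.25 (SE, adjusted p = 0.000325), with a KO response of -0.24 (adjusted p = 0.312) and a WT response of -1.81 (adjusted p = 1.53e-09), and without KO P15 replicate 3 the interaction was 1.44 (adjusted p = 0.000788). Cycs, cytochrome c, which carries electrons from complex III to complex IV, lay at 12.16, 12.18, 12.42 and 12.01 in KO P15 glands and 12.28, 12.08, 12.30 and 12.34 in KO P0 glands, against 11.37, 11.21, 11.57 and 11.27 in WT P15 glands and 12.59, 12.17, 12.25 and 12.48 in WT P0 glands. Its WT P15 values were again lower than all others, and the interaction was 0.96 ± 0.17 (SE, adjusted p = 0.000917). Cox6b1, a subunit of complex IV, lay at 11.49, 11.55, 11.73 and 11.55 in KO P15 glands and 11.62, 11.59, 11.57 and 11.67 in KO P0 glands, against 10.91, 10.84, 10.96 and 10.95 in WT P15 glands and 11.91, 11.68, 11.79 and 11.84 in WT P0 glands, with an interaction of 0.86 ± 0.13 (SE, adjusted p = 0.000246) and 0.81 (adjusted p = 0.00049) without replicate 3.

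The other called members covered the complexes in turn. Among complex I subunits, Ndufa1 had an interaction of 1.02 (adjusted p = 0.00933), Ndufs1 of 0.91 (adjusted p = 0.0481) and Ndufa8 of 0.54 (adjusted p = 0.0437), and Ndufa4, long listed with complex I, of 0.90 (adjusted p = 0.00251). Sdhb, the iron-sulphur subunit of succinate dehydrogenase, had 1.01 (adjusted p = 0.00544). The Rieske iron-sulphur protein of complex III, Uqcrfs1, had 0.91 (adjusted p = 0.0434). For complex IV the values were 0.80 (adjusted p = 0.0073) for Cox5a, 0.70 (adjusted p = 0.00575) for Cox4i1 and 0.47 (adjusted p = 0.0276) for Cox5b, and the ATP synthase subunit Atp5c1 had 0.36 (adjusted p = 0.0459). The smallest estimate was that of Atp5b, a catalytic ATP synthase subunit, at 0.02 (adjusted p = 0.889).

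**Figure D2:**
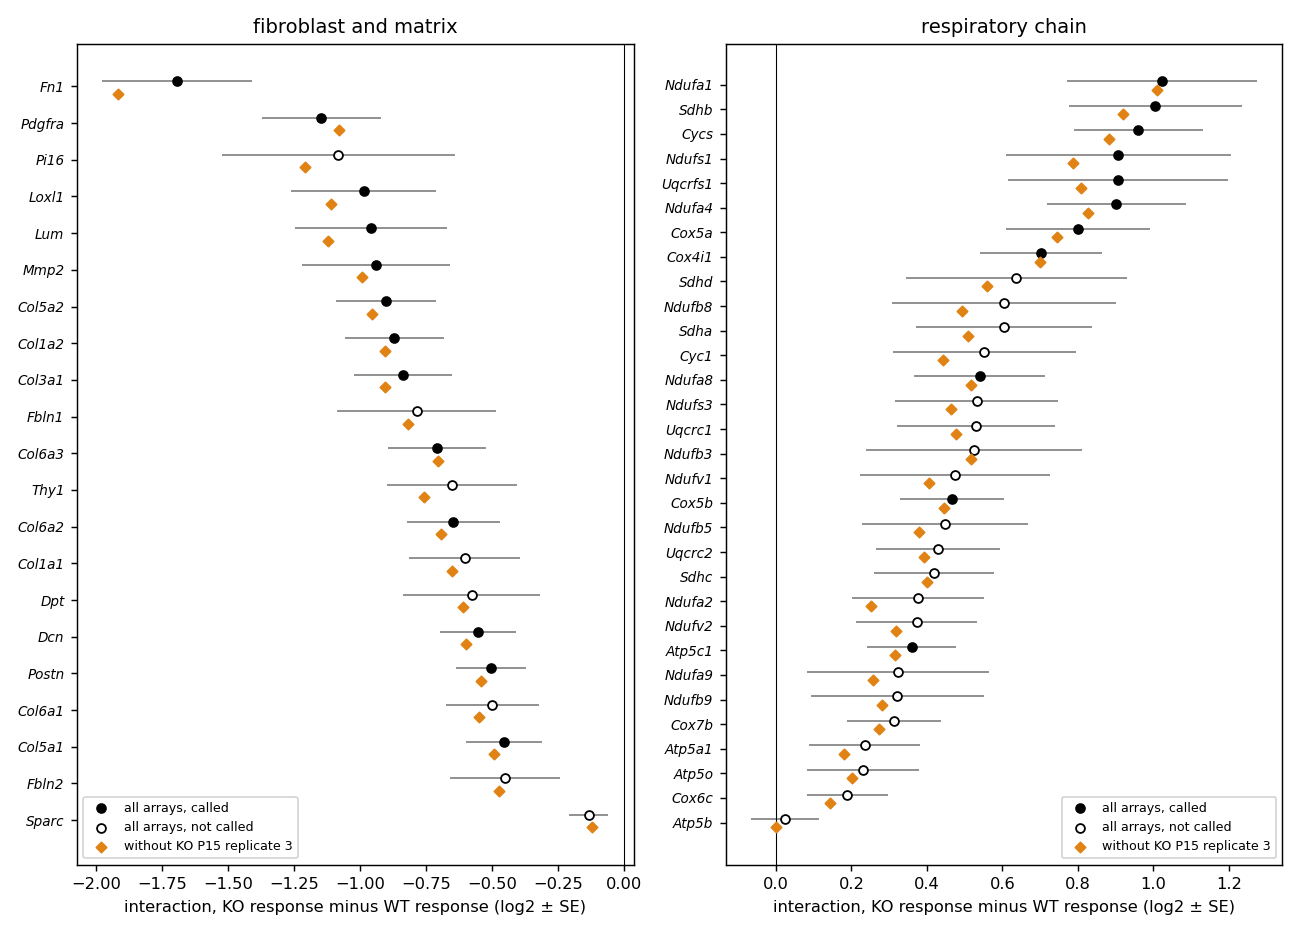
Interaction (horizontal axis, log2, KO response minus WT response) of the 21 tested members of the fibroblast and matrix list and the 31 of the respiratory chain list, with points ± SE, filled where called, and diamonds for the estimate without KO P15 replicate 3. All matrix estimates lie below 0, down to -1.69 for Fn1, and all respiratory estimates lie above 0, up to 1.02 for Ndufa1. The diamonds lie on the same side of 0 as the points for all matrix genes, and above 0 but nearer to it than the points for all 31 respiratory genes.

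The respiratory count depends on single arrays more than the matrix count does. It was 7 without KO P15 replicate 3, 22 without WT P0 replicate 2, and between 6 and 9 with any of the other 14 arrays left out, always with none negative. Positive calls over all 16865 tested genes numbered 810 with all arrays, 730 without KO P15 replicate 3 and 1265 without WT P0 replicate 2. The WT P0 arrays spread by respiratory score in the same order as by brown adipocyte score: replicate 2 had -0.21 and -1.04, replicate 3 had 0.16 and 1.09, replicate 4 had 0.39 and 1.59 and replicate 1 had 0.49 and 1.95. With the pan-epithelial score as a covariate 6 members were called and the median was 0.27. The part of cell content in the respiratory difference beyond that covariate was not tested.

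Gene families grouped by symbol after the values had been seen are given as counts, with no test, beside the 4.8% of all tested genes that were called positive (4.33% without KO P15 replicate 3). Of 35 complex I subunit genes 11 were called positive, of 16 cytochrome c oxidase genes 6, of 8 complex III genes 5, of 17 ATP synthase genes 5, and of 77 mitochondrial ribosomal protein genes 25, with none negative in any of these families. Without KO P15 replicate 3 the counts were 9, 6, 4, 3 and 16. The mitochondrial ribosomal proteins had a median response of 0.04 in KO and -0.26 in WT glands. Of 49 genes for proteins of the cytosolic ribosome none was called positive and Rps13 alone was called negative, with a family median of -0.07. Among proteasome subunits 8 of 39 were called positive, led by Psmc1, an ATPase of the base of the regulatory particle, which lay at 9.96, 10.00, 9.99 and 10.14 in KO P15 glands and 9.82, 9.74, 9.92 and 10.01 in KO P0 glands, against 9.43, 9.55, 9.56 and 9.32 in WT P15 glands and 9.96, 10.06, 9.97 and 9.94 in WT P0 glands. All 4 WT P15 values of Psmc1 were below the other 12, and the interaction was 0.67 ± 0.10 (SE, adjusted p = 0.000246) with 0.68 (adjusted p = 0.000411) without replicate 3.

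The promoters of 4 called genes, picked because they hold a match, show the ETS factor motif CCGGAAG. ETS-type sites are known in promoters of many genes for mitochondrial proteins. Windows run from 250 bases before to 50 after the RefSeq start site (mouse GRCm38.p6), in the direction of transcription, with the motif on either strand in capitals. Cox6b1 is at chr7:30626065-30626364 on the minus strand, Uqcr11 at chr10:80406772-80407071 on the minus strand, Psmc1 at chr12:100109952-100110251 on the plus strand, and Mrps26, a mitochondrial ribosomal protein, at chr2:130563507-130563806 on the plus strand.
Cox6b1: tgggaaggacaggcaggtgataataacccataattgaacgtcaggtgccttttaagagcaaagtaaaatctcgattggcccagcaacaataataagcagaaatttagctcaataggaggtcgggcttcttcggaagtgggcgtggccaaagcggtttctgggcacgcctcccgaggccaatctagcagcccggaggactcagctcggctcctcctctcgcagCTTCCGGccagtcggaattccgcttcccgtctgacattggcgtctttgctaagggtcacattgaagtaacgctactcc
Uqcr11: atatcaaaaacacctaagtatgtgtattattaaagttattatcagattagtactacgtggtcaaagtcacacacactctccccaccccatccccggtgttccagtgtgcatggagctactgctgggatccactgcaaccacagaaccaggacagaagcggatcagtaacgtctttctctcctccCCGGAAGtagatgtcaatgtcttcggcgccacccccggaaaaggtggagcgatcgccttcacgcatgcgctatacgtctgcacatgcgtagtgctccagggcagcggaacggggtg
Psmc1: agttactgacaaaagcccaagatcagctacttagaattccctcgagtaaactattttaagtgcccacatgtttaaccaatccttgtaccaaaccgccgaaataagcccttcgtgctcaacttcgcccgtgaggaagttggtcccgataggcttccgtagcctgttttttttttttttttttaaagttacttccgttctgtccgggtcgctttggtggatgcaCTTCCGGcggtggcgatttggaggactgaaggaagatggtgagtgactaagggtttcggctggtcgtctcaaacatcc
Mrps26: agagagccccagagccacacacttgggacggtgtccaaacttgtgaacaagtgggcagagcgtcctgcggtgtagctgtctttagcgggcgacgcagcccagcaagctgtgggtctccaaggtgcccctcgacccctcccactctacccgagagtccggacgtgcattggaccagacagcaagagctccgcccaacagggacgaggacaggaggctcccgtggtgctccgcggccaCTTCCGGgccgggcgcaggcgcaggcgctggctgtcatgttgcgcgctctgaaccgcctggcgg
The motif begins at position -28 from the start site in Cox6b1, -66 in Uqcr11, -28 in Psmc1 and -14 in Mrps26. It was present in the windows of 28.3% of the genes called positive (191 of 675 with a window) and 13.5% of those called negative (94 of 696), against 14.3% of all tested genes (1900 of 13255) and 9.1% of all windows (2465 of 27025). The median share of G and C in the windows of the same sets was 60.3%, 62.7%, 59.3% and 52.7%. The NRF1 motif, known from promoters of respiratory genes and searched as GCGCA, any base, then GCGC, was present in 13.8% of the windows of genes called positive (93 of 675) and 10.5% of those called negative (73 of 696), against 8.3% of all tested genes (1104 of 13255) and 4.8% of all windows (1293 of 27025). It was thus more frequent among called genes of both directions, and neither motif contains the other. Both strands were read, and a match shows letters and not binding by a factor. In the respiratory chain list itself the ETS motif was present in 3 of 22 windows and the NRF1 motif in 5 of 22. Each motif was present in 1 of the 9 windows of called members.

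Genes of fat cells were lower at P15 than at P0 in both genotypes, and by less in KO glands for a few of them. Of 19 white adipocyte markers 15 were called down in KO glands and 18 in WT glands, where 21.8% and 27.3% of all tested genes were. In the interaction, 2 were called positive (10.5%, against 4.8% of all tested genes), Retn and Fabp4, and 18 of 19 estimates were above 0 with a median of 0.42, or 0.17 with the pan-epithelial score as a covariate. Fabp4, the main fatty acid binding protein of fat cells, lay at 12.46, 12.27, 12.25 and 12.22 in KO P15 glands and 12.58, 12.44, 12.54 and 12.52 in KO P0 glands, against 11.97, 12.06, 11.87 and 11.98 in WT P15 glands and 12.67, 12.70, 12.59 and 12.58 in WT P0 glands. Its WT P15 arrays were the lowest, all below KO P15, and its interaction was 0.45 ± 0.11 (SE, adjusted p = 0.00892). Retn, the secreted protein resistin, lay at 12.40, 12.20, 12.48 and 11.96 in KO P15 glands and 12.91, 12.76, 12.91 and 12.66 in KO P0 glands, against 11.87, 11.77, 11.86 and 11.86 in WT P15 glands and 12.96, 12.83, 12.97 and 13.02 in WT P0 glands, with an interaction of 0.56 ± 0.13 (SE, adjusted p = 0.0065). Both calls were kept in all 16 fits with 1 array left out.

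Brown fat markers showed wide spread. Of 12 tested, 3 were called down in KO glands and 10 in WT glands, where 21.8% and 27.3% of all tested genes were. All 12 interactions were above 0 with a median of 1.43, or 0.65 with that covariate, but only Cox8b was called. Cox8b, the form of complex IV subunit 8 used in muscle and brown fat, lay at 9.67, 11.22, 11.42 and 10.04 in KO P15 glands and 12.01, 11.73, 11.89 and 12.12 in KO P0 glands, against 8.87, 8.42, 8.60 and 7.78 in WT P15 glands and 12.64, 11.36, 12.16 and 12.52 in WT P0 glands. KO P15 arrays lay above all WT P15 arrays, with replicates 2 and 3 within 1 log2 unit of the lowest KO P0 array. The interaction was 2.40 ± 0.61 (SE, adjusted p = 0.0117), from a KO response of -1.35 (adjusted p = 0.0119) and a WT response of -3.75 (adjusted p = 2.85e-08), and 2.12 (adjusted p = 0.0271) without replicate 3. Leaving out WT P0 replicate 2, whose brown adipocyte score was the lowest of its group, raised the called markers to 6. Calls over all tested genes rose from 1704 to 2598 in the same fit. Ucp1, the uncoupling protein that defines brown fat, had an interaction of 2.47 ± 1.67 (SE, adjusted p = 0.358).

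Enzymes of fatty acid oxidation held further positive calls. Acadl, the long-chain acyl-CoA dehydrogenase, lay at 10.57, 10.91, 10.57 and 10.96 in KO P15 glands and 10.63, 10.66, 10.78 and 10.91 in KO P0 glands, against 9.29, 10.21, 9.52 and 10.23 in WT P15 glands and 11.65, 10.68, 10.92 and 11.45 in WT P0 glands. The KO stages overlapped, WT P15 lay below WT P0 in every array, and the interaction was 1.37 ± 0.32 (SE, adjusted p = 0.00661). Of 10 acyl-CoA dehydrogenase genes, a family picked after its values had been seen, 4 were called positive (Acadl, Acadvl, Acad12 and Acads), and 2 without KO P15 replicate 3, where 4.8% and 4.33% of all tested genes were. P2rx5, an ATP-gated channel used as a marker of brown fat cells in mice, had 1.36 (adjusted p = 0.033) and lost its call without KO P15 replicate 3, at 1.12 (adjusted p = 0.0783). The lipid chaperone Fabp5 had 1.54 (adjusted p = 0.00221), with 1.39 (adjusted p = 0.0049) without replicate 3, and Hsd11b1, which regenerates active glucocorticoid in fat, had 1.50 (adjusted p = 0.0119). Cd1d1, which presents lipids to T cells, had 1.42 (adjusted p = 0.00438).

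Of 25 genes of fatty acid and triglyceride synthesis only Mlxipl, the carbohydrate-responsive factor ChREBP, was called, at 1.34 (adjusted p = 0.0494), and without replicate 3 its value was 1.10 (adjusted p = 0.109). Of 18 genes of cholesterol synthesis and uptake 2 were called positive (11.1%, against 4.8% of all tested genes), Fdps, which makes farnesyl diphosphate, at 0.77 (adjusted p = 0.00986), and Pmvk, phosphomevalonate kinase, at 1.16 (adjusted p = 0.0229). The KO P15 array labelled replicate 3 was the highest of its group for both, at 10.12 for Fdps and 8.88 for Pmvk. Without it Fdps had 0.63 (adjusted p = 0.0239) and Pmvk 0.95 (adjusted p = 0.0571).

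**Figure D3:**
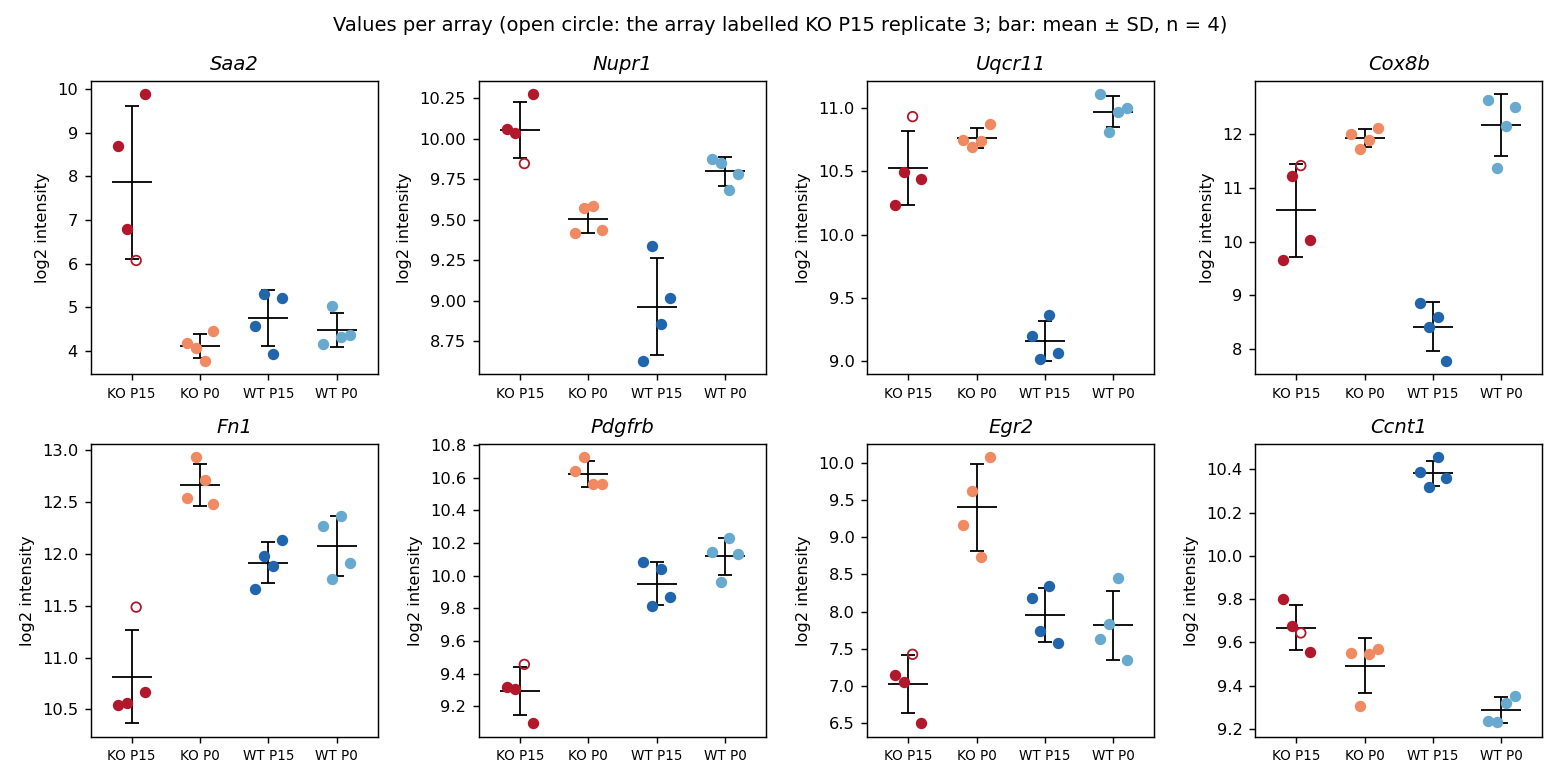
Log2 intensity (vertical axes, a scale per gene that does not start at 0) of 8 genes in KO P15, KO P0, WT P15 and WT P0 glands, with points for arrays, bars for the mean ± SD (n = 4) and an open circle for KO P15 replicate 3. Uqcr11 is low in WT P15 alone, Ccnt1 high in WT P15 alone, Fn1 and Pdgfrb low in KO P15 alone, Saa2 high in KO P15 alone, and Egr2 highest in KO P0.

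Fibroblast and matrix genes fell further in KO glands. All 21 tested markers were called down at P15 in KO glands and 11 in WT glands, where 21.8% and 27.3% of all tested genes were. None was called up in either genotype, and the median response was -1.26 in KO and -0.37 in WT glands. In the interaction 13 of 21 were called negative and none positive, 61.9% of the list against 5.3% of all tested genes, and the median was -0.71, all 21 estimates being below 0. At P15, 12 of the 21 were lower in KO than in WT glands (4.33% of all tested genes were), while at P0 none was called, with a median difference of 0.21. The count was 13 without KO P15 replicate 3, 10 to 15 with any 1 of the 16 arrays left out, 12 after centring and after quantile normalisation, and 14 with the pan-epithelial score as a covariate. The list median kept its value of -0.71 under that covariate.

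Fn1, fibronectin, which links cells to the matrix, lay at 10.54, 10.56, 11.49 and 10.66 in KO P15 glands and 12.54, 12.93, 12.71 and 12.48 in KO P0 glands, against 11.66, 11.98, 11.89 and 12.13 in WT P15 glands and 12.27, 11.75, 12.37 and 11.91 in WT P0 glands. All KO P15 values were below the other 12 arrays, and KO P15 replicate 3 was the nearest to them. The interaction was -1.69 ± 0.28 (SE, adjusted p = 0.00057), with a KO response of -1.85 (adjusted p = 1.13e-08) and a WT response of -0.16 (adjusted p = 0.536). It was -1.92 (adjusted p = 7.16e-05) without replicate 3. The fibrillar collagen chain gene Col1a2 lay at 10.69, 10.58, 10.76 and 10.59 in KO P15 glands and 11.64, 11.85, 11.56 and 11.04 in KO P0 glands, against 11.15, 11.22, 11.45 and 11.32 in WT P15 glands and 11.25, 11.27, 11.52 and 11.09 in WT P0 glands. Its KO response was -0.87 (adjusted p = 3.44e-06) and its WT response 0.00 (adjusted p = 0.986), and the interaction was -0.87 ± 0.19 (SE, adjusted p = 0.00365). Col3a1 had -0.84 (adjusted p = 0.0048), Col5a2 -0.90 (adjusted p = 0.00303), Col5a1 -0.45 (adjusted p = 0.0414), and Col1a1, whose value did not pass the threshold, -0.60 (adjusted p = 0.0626).

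Of the collagen VI chains, which form microfibrils around cells, Col6a3 had -0.71 (adjusted p = 0.0141) and Col6a2 -0.65 (adjusted p = 0.0177). The small proteoglycans Dcn and Lum, which bind collagen fibrils, had -0.55 (adjusted p = 0.0136) and -0.96 (adjusted p = 0.0305). Matrix-modifying enzymes were represented by Mmp2, a gelatinase, at -0.94 (adjusted p = 0.0295), and Loxl1, which cross-links elastin, at -0.99 (adjusted p = 0.0196), and Postn, a matricellular protein, had -0.50 (adjusted p = 0.0146). The estimate nearest to 0 was that of Sparc, a collagen-binding glycoprotein, at -0.13 (adjusted p = 0.252). Over the 44 collagen genes tested, in the list or not, 7 were called negative and none positive and the median was 0.00. Among all tested genes 5.3% were called negative and 4.8% positive.

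Matrix genes outside the list were among the largest negative interactions. Hmcn1, hemicentin 1, an extracellular protein of basement membranes, lay at 7.76, 7.68, 8.76 and 8.04 in KO P15 glands and 9.33, 10.74, 10.39 and 8.98 in KO P0 glands, against 9.41, 9.54, 9.97 and 9.93 in WT P15 glands and 8.98, 9.62, 9.66 and 8.94 in WT P0 glands. The KO P15 arrays were the lowest of all 16, and WT P15 lay within or above the range of WT P0. Its interaction was -2.21 ± 0.38 (SE, adjusted p = 0.00072) and -2.44 (adjusted p = 0.000224) without replicate 3. P4ha3, a catalytic subunit of collagen prolyl 4-hydroxylase, had -2.22 (adjusted p = 0.0079), and Frem1, a matrix protein of embryonic epithelial basement membranes, had -1.97 (adjusted p = 0.000195). Mrc2, an endocytic receptor for collagen, was called down in both genotypes and had -0.98 (adjusted p = 0.000869).

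Of 32 receptor tyrosine kinases 3 were called, all negative, namely Pdgfrb, Pdgfra and Egfr. That is 9.4% of the list, where 10.1% of all tested genes were called in either direction and 5.3% negative, so the values are given for single receptors and not as a result of the list. Pdgfrb, the platelet-derived growth factor receptor of pericytes and fibroblasts, shared the smallest adjusted p in the interaction with Ccnt1. It lay at 9.32, 9.31, 9.46 and 9.10 in KO P15 glands and 10.64, 10.73, 10.56 and 10.56 in KO P0 glands, against 10.08, 9.81, 10.04 and 9.87 in WT P15 glands and 10.15, 9.96, 10.23 and 10.13 in WT P0 glands. KO P15 was the lowest group and KO P0 the highest, with no overlap with either WT group. The interaction was -1.16 ± 0.14 (SE, adjusted p = 3.55e-05) and -1.22 (adjusted p = 2.34e-05) without replicate 3, and the genotype difference was -0.66 (adjusted p = 8.37e-05) at P15 and 0.50 (adjusted p = 0.00838) at P0. Pdgfra, the receptor of fibroblasts and a member of the matrix list too, had -1.15 ± 0.22 (SE, adjusted p = 0.00209), with a KO response of -1.52 (adjusted p = 5.73e-09) and a WT response of -0.38 (adjusted p = 0.0497). Egfr, whose signalling in stroma supports duct growth, lay at 9.88, 9.78, 9.87 and 9.88 in KO P15 glands and 10.72, 11.08, 11.01 and 10.57 in KO P0 glands, against 10.28, 10.35, 10.33 and 10.44 in WT P15 glands and 10.65, 9.94, 10.66 and 9.88 in WT P0 glands. Its values in WT P0 spread from 9.88 to 10.66 while the KO stages did not overlap, and the interaction was -1.06 ± 0.21 (SE, adjusted p = 0.00237). Pdgfra, Pdgfrb and Egfr kept their calls with each of the 16 arrays left out.

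Of 12 pericyte and smooth muscle markers Pdgfrb was called negative and Cspg4, the pericyte proteoglycan NG2, positive, at 1.21 (adjusted p = 0.0142), and the median was -0.05. Cspg4 was higher in WT P0 glands than in all other groups. Alx4, a homeobox factor of mesenchyme, fell in KO alone and lay at 6.77, 6.66, 6.76 and 6.69 in KO P15 glands and 7.70, 8.05, 7.75 and 8.18 in KO P0 glands, against 7.09, 7.08, 7.09 and 6.95 in WT P15 glands and 7.35, 7.02, 7.24 and 7.08 in WT P0 glands. The KO P0 arrays were the highest, and the interaction was -1.08 ± 0.15 (SE, adjusted p = 0.000145).

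Of 27 genes of insulin, IGF and leptin signalling 4 were called, 3 negative and 1 positive. The share of 14.8% stands beside 10.1% of all tested genes (5.3% negative and 4.8% positive), a difference of few genes in a list of this size. Igfbp6, which binds IGF-II, lay at 8.01, 7.95, 8.21 and 7.73 in KO P15 glands and 10.65, 10.88, 10.37 and 9.37 in KO P0 glands, against 9.36, 9.58, 9.34 and 9.58 in WT P15 glands and 10.00, 9.26, 10.63 and 9.79 in WT P0 glands. KO P15 was below all other groups, and the interaction was -1.89 ± 0.39 (SE, adjusted p = 0.00295), with -1.97 (adjusted p = 0.0035) without replicate 3. Igfbp4, another IGF-binding protein, had -0.82 (adjusted p = 0.00862). Grb10, an adaptor that damps signalling of the insulin receptor, had -0.79 (adjusted p = 0.00839), and its genotype difference at P15 was -0.61 (adjusted p = 0.00335). The kinase Mtor was called positive at 0.66 (adjusted p = 0.0207), with a KO response of 0.10 (adjusted p = 0.595) and a WT response of -0.56 (adjusted p = 0.000677), and was not called with the pan-epithelial score as a covariate. Neither the insulin receptor nor the leptin receptor was among the called genes.

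Of 36 classical tyrosine phosphatases, Ptpn1 included, 4 were called, all negative, and the list median was 0.00. The share of 11.1% is near the 10.1% of all tested genes called in either direction (5.3% negative), and the values are given for single genes. Ptprj, a receptor-type phosphatase, lay at 10.38, 10.50, 10.44 and 10.46 in KO P15 glands and 10.62, 10.66, 10.62 and 10.37 in KO P0 glands, against 10.70, 10.75, 10.75 and 10.77 in WT P15 glands and 10.02, 10.07, 10.33 and 10.01 in WT P0 glands. It was not called in KO glands, -0.12 (adjusted p = 0.445), and rose in WT glands, 0.63 (adjusted p = 6.59e-05), and the interaction was -0.76 ± 0.17 (SE, adjusted p = 0.00501). Ptpn12 had -0.40 (adjusted p = 0.0113), Ptpn9 -0.42 (adjusted p = 0.0141) and Ptpn13 -0.60 (adjusted p = 0.0367). For Ptpn13 the call was kept in 5 of the 16 fits that left out 1 array. Of 20 genes of prolactin and STAT5 signalling only Socs2, an inhibitor of that pathway and of growth hormone signalling, was called. It lay at 9.96, 10.08, 9.92 and 9.92 in KO P15 glands and 10.85, 11.12, 11.13 and 10.38 in KO P0 glands, against 9.65, 9.99, 9.82 and 9.95 in WT P15 glands and 9.68, 10.24, 10.10 and 9.79 in WT P0 glands. KO P0 was above all other groups with replicate 4 nearest to them, and the interaction was -0.80 ± 0.21 (SE, adjusted p = 0.014), with a genotype difference of 0.11 (adjusted p = 0.731) at P15 and 0.92 (adjusted p = 0.00122) at P0.

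No milk protein gene passed the test of the interaction. Of 24 genes of milk proteins and secretion none was called in the interaction, the median was -0.24, and the median response was 1.79 in KO and 2.21 in WT glands. With the pan-epithelial score as a covariate the list median was 0.13. Csn2, beta-casein, had an interaction of -0.38 ± 0.67 (SE, adjusted p = 0.755), and Wap, whey acidic protein, of 0.21 ± 0.92 (SE, adjusted p = 0.907). The closest to the threshold were Csn1s2b, a casein, at 1.38 ± 0.46 (SE, adjusted p = 0.0535), and Plin2, which coats lipid droplets, at 0.45 ± 0.16 (SE, adjusted p = 0.0699). Both passed it without KO P15 replicate 3, at 1.71 (adjusted p = 0.0125) and 0.54 (adjusted p = 0.0332). Csn1s2b lay at 9.11, 8.92, 8.11 and 10.26 in KO P15 glands and 5.07, 4.82, 5.03 and 5.53 in KO P0 glands, against 7.56, 8.25, 7.05 and 8.08 in WT P15 glands and 5.13, 5.06, 5.17 and 5.16 in WT P0 glands. KO P15 replicate 3 was the lowest of its group, the only one below the highest WT P15 array.

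Of 17 genes of transport into milk 2 were called, both negative. The share of 11.8% is near the 10.1% of all tested genes called in either direction (5.3% negative), and the values are given for single genes. Slc2a1, the glucose transporter GLUT1 that supplies lactose synthesis, lay at 11.18, 11.08, 11.51 and 11.00 in KO P15 glands and 10.19, 10.52, 10.57 and 10.69 in KO P0 glands, against 11.58, 11.46, 11.53 and 11.45 in WT P15 glands and 9.83, 10.30, 10.13 and 9.86 in WT P0 glands. It rose in both genotypes, by 0.70 (adjusted p = 0.000118) in KO and 1.47 (adjusted p = 7.12e-10) in WT glands, and the interaction was -0.77 ± 0.20 (SE, adjusted p = 0.0119). The genotypes overlapped at P0. At P15 only KO P15 replicate 3, at 11.51, lay within the WT P15 range, and the other KO P15 arrays lay below it. Neither stage difference was called on its own. Tpd52, a vesicle protein of secretory cells, had -0.55 (adjusted p = 0.0455) and kept its call in 3 of the 16 fits that left out 1 array.

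Genes of the endoplasmic reticulum split in both directions, with 2 positive and 4 negative of 28 (21.4%, against 10.1% of all tested genes) and a median of -0.11. Sec61a1, the pore through which secreted proteins enter the organelle, lay at 11.90, 11.93, 12.13 and 11.82 in KO P15 glands and 11.88, 11.84, 11.80 and 11.89 in KO P0 glands, against 12.44, 12.27, 12.33 and 12.27 in WT P15 glands and 11.35, 11.77, 11.63 and 11.39 in WT P0 glands. It was not called in KO glands, 0.09 (adjusted p = 0.347), and rose in WT glands, 0.79 (adjusted p = 1.2e-09), for an interaction of -0.69 ± 0.11 (SE, adjusted p = 0.000246). Ssr1, which associates with that pore, had -0.58 (adjusted p = 0.0039), the COPII coat gene Sec23b -0.56 (adjusted p = 0.013) and the secretory factor Creb3l2 -0.54 (adjusted p = 0.0335). Positive calls were made for the stress-response factors Atf4, at 0.52 ± 0.12 (SE, adjusted p = 0.0059), and Ddit3 (CHOP), at 0.65 ± 0.16 (SE, adjusted p = 0.00982). Atf4 rose in both genotypes, and its KO P15 values of 8.14, 8.04, 8.40 and 8.20 were above its WT P15 values of 7.79, 7.85, 7.95 and 7.67. Nupr1, a stress-induced nuclear protein that ATF4 can induce, moved in opposite directions. It lay at 10.06, 10.04, 9.85 and 10.27 in KO P15 glands and 9.42, 9.57, 9.59 and 9.44 in KO P0 glands, against 8.63, 9.34, 8.86 and 9.02 in WT P15 glands and 9.88, 9.85, 9.68 and 9.78 in WT P0 glands. It rose in KO glands, 0.55 (adjusted p = 0.002), and fell in WT glands, -0.84 (adjusted p = 1.33e-05), with an interaction of 1.39 ± 0.20 (SE, adjusted p = 0.000183) and 1.46 (adjusted p = 0.000121) without replicate 3.

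Hormone targets held a few negative calls. Of 14 progesterone receptor targets 2 were called negative (14.3%, against 5.3% of all tested genes), and the list median was -0.78, or -0.45 with the pan-epithelial score as a covariate. Id4, an inhibitor of helix-loop-helix factors, lay at 8.59, 8.89, 9.12 and 8.53 in KO P15 glands and 8.28, 9.31, 8.80 and 9.40 in KO P0 glands, against 9.15, 8.78, 9.18 and 9.34 in WT P15 glands and 7.26, 8.54, 7.92 and 7.92 in WT P0 glands. It was not called in KO glands, -0.16 (adjusted p = 0.626), whose P0 level was above that of WT by 1.04 (adjusted p = 0.0208), and rose in WT glands, 1.20 (adjusted p = 9.84e-05), and the interaction was -1.37 ± 0.33 (SE, adjusted p = 0.00864). Adamts18, a protease secreted by myoepithelial cells under progesterone, had -1.16 ± 0.25 (SE, adjusted p = 0.00363), with a genotype difference of -0.29 (adjusted p = 0.336) at P15 and 0.87 (adjusted p = 0.00992) at P0. Of 14 markers of hormone-sensing luminal cells only Ptn, pleiotrophin, was called, at -0.72 (adjusted p = 0.0322), and it fell by far more than that in both genotypes, -3.68 (adjusted p = 2.35e-17) in KO and -2.96 (adjusted p = 4.42e-15) in WT glands. Among 15 myoepithelial markers Trp63, the p63 factor of basal cells, was called at -0.97 (adjusted p = 0.00712). Akr1c18, the 20-alpha-hydroxysteroid dehydrogenase that inactivates progesterone, had the largest negative interaction of all tested genes. Akr1c18 lay at 5.53, 5.53, 6.69 and 5.35 in KO P15 glands and 9.99, 9.04, 8.96 and 8.34 in KO P0 glands, against 6.90, 8.31, 7.59 and 8.50 in WT P15 glands and 8.27, 6.17, 8.92 and 7.89 in WT P0 glands. Every KO P15 array was below every KO P0 array, the WT stages overlapped, and the interaction was -3.32 ± 0.89 (SE, adjusted p = 0.0162), with -3.62 (adjusted p = 0.0122) without replicate 3.

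All 35 tested cell cycle genes had a negative interaction, with a median of -1.02, and none was called. In KO glands none was called in either direction at P15, where 19.5% of all tested genes were called up and 21.8% down. In WT glands 22 of the 35 were called up, against 21.6% of all tested genes. The median genotype difference was 0.79 at P0 and -0.21 at P15, so the estimates draw more on the nulliparous stage than on day 15. Ccna2, cyclin A2, lay at 9.55, 9.01, 9.77 and 8.82 in KO P15 glands and 8.61, 8.74, 9.33 and 10.63 in KO P0 glands, against 10.05, 9.63, 10.28 and 9.86 in WT P15 glands and 7.06, 9.05, 7.38 and 8.58 in WT P0 glands. WT P0 replicates 1 and 3 were the lowest arrays and KO P0 replicate 4 the highest, and the interaction was -1.98 ± 0.68 (SE, adjusted p = 0.0607). The list score lay between -0.53 and 0.12 in KO P15, -0.72 and 0.87 in KO P0, -0.24 and 0.24 in WT P15 and -1.47 and -0.22 in WT P0 glands, with WT P0 replicate 2 at -0.22. Without that array 13 of the 35 were called negative (1333 of all 16865 tested genes were), and with array weights 23 (1526 of 16865). With the pan-epithelial score as a covariate none was called and the median was -0.52.

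The 19 pan-epithelial markers gave a similar picture, with all estimates below 0, a median of -0.49 and no call. Without WT P0 replicate 2, 10 of them were called, where 2598 of all 16865 tested genes were. Their scores at P15 were 0.44 to 0.51 in KO and 0.42 to 0.60 in WT glands, and at P0 -0.42 to 0.27 in KO and -0.93 to 0.30 in WT glands. KO and WT glands thus overlapped at P15. At P0 the overlap rested on WT P0 replicate 2, at 0.30, and the other WT P0 arrays lay below every KO P0 array. The median genotype difference of the markers was 0.02 at P15 and 0.50 at P0. Of the luminal progenitor markers none of 14 was called, with Gabrp nearest at -1.42 (adjusted p = 0.0683).

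**Figure D4:**
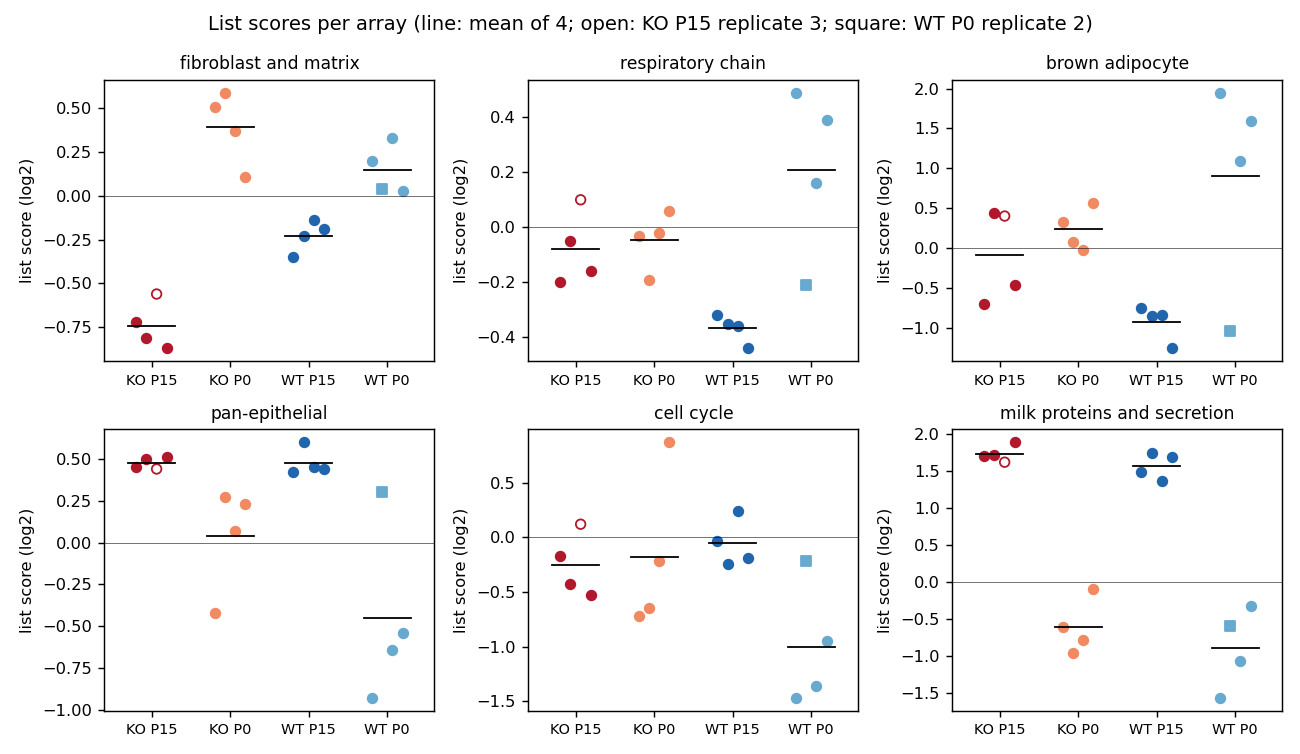
List score (vertical axes, log2, mean of centred member values) per array for 6 lists in KO P15, KO P0, WT P15 and WT P0 glands, with lines for group means, an open circle for KO P15 replicate 3 and a square for WT P0 replicate 2. The matrix scores of KO P15, -0.87 to -0.56, lie below all others, the respiratory scores of WT P15, -0.44 to -0.32, lie below all others, and the square lies apart from its group for the brown adipocyte and pan-epithelial lists.

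Of 20 tested genes of the acute phase list Saa2 and Slpi were called positive and Cxcl15 negative, 15% of the list against 10.1% of all tested genes. Among the 20 is Olfr48, an olfactory receptor gene to which the entry C3 was matched by a synonym, so the list does not cover complement C3. Saa2, an acute phase apolipoprotein made in liver and in epithelia under inflammation, lay at 8.70, 6.79, 6.07 and 9.88 in KO P15 glands and 4.19, 4.06, 3.77 and 4.45 in KO P0 glands, against 4.58, 5.30, 3.94 and 5.21 in WT P15 glands and 4.15, 5.04, 4.33 and 4.38 in WT P0 glands. All 4 KO P15 arrays were above the other 12, over a range of 6.07 to 9.88, with replicate 3 the lowest of them. All 4 KO P0 values and 5 of the 8 WT values were below 4.96, the 25th percentile of all values in the table, which served as the filter on dim values, so the fold against them is not well determined. The interaction was 3.46 ± 0.68 (SE, adjusted p = 0.00211), from a KO response of 3.74 (adjusted p = 2.34e-07) and a WT response of 0.29 (adjusted p = 0.651), and 4.05 (adjusted p = 0.000151) without replicate 3. The promoter of Saa2 (GRCm38.p6, chr7:46751583-46751882, plus strand) is shown because serum amyloid genes are classical targets of C/EBP factors, and the capitals mark a match to TTGCNNAA, with N for any base, on either strand and with no overlap in letters with the ETS motif.
Saa2: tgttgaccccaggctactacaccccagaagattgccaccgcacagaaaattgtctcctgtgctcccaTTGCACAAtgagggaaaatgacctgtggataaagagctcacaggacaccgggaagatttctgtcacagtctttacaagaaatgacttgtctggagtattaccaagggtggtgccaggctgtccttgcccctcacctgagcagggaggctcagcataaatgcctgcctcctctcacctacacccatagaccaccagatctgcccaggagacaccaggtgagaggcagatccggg
The match begins at position -183, and the same motif was present in 8.0% of windows of genes called positive, 9.1% of those called negative and 8.8% of all tested genes. Slpi, a secreted inhibitor of neutrophil elastase, lay at 8.23, 7.57, 8.62 and 8.18 in KO P15 glands and 6.36, 8.10, 7.75 and 6.55 in KO P0 glands, against 8.01, 7.59, 8.02 and 7.93 in WT P15 glands and 8.53, 10.09, 9.87 and 8.21 in WT P0 glands. The genotypes overlapped at P15, and at P0 KO was below WT with a difference of -1.99 (adjusted p = 0.00425), and the interaction was 2.25 ± 0.51 (SE, adjusted p = 0.00529). Lgals4, a galectin of epithelia, rose in KO glands, 0.77 (adjusted p = 5.48e-05), and fell in WT glands, -0.52 (adjusted p = 0.00314), for an interaction of 1.30 ± 0.20 (SE, adjusted p = 0.000255).

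Single markers of macrophages and mast cells, and Lyve1 among the endothelial markers, had negative interactions. Of 19 macrophage markers only Adgre1, a surface receptor of macrophages, was called, at -1.15 (adjusted p = 0.047), with -1.16 (adjusted p = 0.0614) without replicate 3. The list median was -0.72, with 13 markers called down in KO and 7 in WT glands (21.8% and 27.3% of all tested genes were). Vsig4, a complement receptor of resident macrophages that was not in the list, lay at 4.51, 3.94, 4.34 and 3.93 in KO P15 glands and 8.85, 7.02, 8.04 and 7.27 in KO P0 glands, against 4.91, 5.15, 4.98 and 4.82 in WT P15 glands and 6.23, 4.55, 7.03 and 5.74 in WT P0 glands. KO P0 was above WT P0 with a difference of 1.91 (adjusted p = 0.023), all P15 values lay between 3.93 and 5.15, those of KO below the filter value of 4.96, and the interaction was -2.70 ± 0.62 (SE, adjusted p = 0.00592). The 17 endothelial markers had a median interaction of 0.13, with 12 estimates above 0 and 5 below. Among them only Lyve1, the hyaluronan receptor of lymphatic endothelium and of some macrophages, was called. It lay at 6.97, 7.07, 8.41 and 7.51 in KO P15 glands and 11.55, 10.61, 11.11 and 10.89 in KO P0 glands, against 8.86, 9.08, 8.87 and 9.17 in WT P15 glands and 10.54, 8.42, 11.37 and 9.86 in WT P0 glands. KO P15 lay below all other arrays and below WT P15, and the interaction was -2.49 ± 0.69 (SE, adjusted p = 0.0192).

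Cpa3, the carboxypeptidase of mast cell granules, lay at 6.57, 6.70, 8.28 and 7.19 in KO P15 glands and 10.04, 11.20, 11.19 and 10.01 in KO P0 glands, against 8.73, 9.87, 8.59 and 9.67 in WT P15 glands and 10.12, 7.46, 10.54 and 10.66 in WT P0 glands, with an interaction of -2.95 ± 0.92 (SE, adjusted p = 0.0374). Mcpt4, a mast cell chymase, followed the same arrays, with -2.23 ± 0.71 (SE, adjusted p = 0.0424). WT P0 replicate 2 was the lowest WT P0 array for both, at 7.46 for Cpa3 and 7.37 for Mcpt4. Without KO P15 replicate 3 the values were -3.31 (adjusted p = 0.0232) and -2.51 (adjusted p = 0.0261), and the calls were kept in 8 and 7 of the 16 fits that left out 1 array. Of 14 neutrophil and mast cell markers these were the only calls. Of 11 plasma cell markers only Sdc1, a proteoglycan that epithelia also carry, was called, at -1.26 (adjusted p = 0.00192).

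Precursors of the cornified envelope were higher in nulliparous KO than WT glands for 3 of 9 markers (1.27% of all tested genes were). Of 12 measured markers of cornified epithelium 9 passed the filter on dim values. In the interaction 3 of the 9 were called negative, Sprr2f, Sprr1a and Ivl, and the list median was -0.15. That is 33.3%, against 5.3% of all tested genes. Ivl lay at or below the filter value of 4.96 in 9 of the 16 arrays, and Sprr2f exceeded it in KO P0 alone. The share therefore depends on the filter, and the values are given for single genes. Sprr1a lay at 6.10, 6.17, 6.07 and 6.25 in KO P15 glands and 9.42, 9.46, 10.19 and 8.06 in KO P0 glands, against 6.41, 6.21, 6.10 and 6.48 in WT P15 glands and 7.31, 8.15, 7.56 and 7.33 in WT P0 glands. Of the KO P0 arrays replicate 4 lay within the WT P0 range and the others above it, KO P0 was above WT P0 with a difference of 1.70 (adjusted p = 0.00122), and at P15 both genotypes lay between 6.07 and 6.48. Its interaction was -1.85 ± 0.39 (SE, adjusted p = 0.00318). Sprr2f behaved alike, with -1.47 ± 0.28 (SE, adjusted p = 0.00174) and a P0 difference of 1.43 (adjusted p = 0.000241). For Sprr2f 13 of the 16 values were below the filter value of 4.96, 3 KO P0 arrays being the exception. In KO P0 glands Pate6 was also high, at 8.96, 8.23, 9.44 and 6.75, against 5.53, 6.25, 8.14 and 4.15 in WT P0 glands, with all P15 arrays of both genotypes between 3.79 and 4.14 and an interaction of -2.31 ± 0.67 (SE, adjusted p = 0.0248) that was called in 12 of the 16 fits that left out 1 array. All 8 P15 values of Pate6 were below 4.96, so its interaction restates the P0 difference of 2.33 (adjusted p = 0.00996) and the size of the fall is not well determined in either genotype. Far2, a fatty acyl-CoA reductase of wax synthesis, and Them5, a thioesterase, had -1.95 (adjusted p = 0.00615) and -2.12 (adjusted p = 0.00813). The skin score was 0.09 to 0.82 in KO P0 and 0.12 to 0.27 in WT P0 glands.

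Single immediate early factors were called in both directions, 3 of 25 genes or 12%, which is near the 10.1% of all tested genes. Egr2, a zinc finger factor induced by growth factor signals, lay at 7.14, 7.06, 7.43 and 6.50 in KO P15 glands and 9.16, 9.63, 8.73 and 10.08 in KO P0 glands, against 8.18, 7.74, 8.35 and 7.57 in WT P15 glands and 7.63, 7.84, 8.45 and 7.35 in WT P0 glands. KO P0 lay above all other arrays, while KO P15 was the lowest group on average and overlapped WT P0. The interaction was -2.51 ± 0.38 (SE, adjusted p = 0.000246) and -2.65 (adjusted p = 0.000161) without replicate 3, with genotype differences of -0.93 (adjusted p = 0.0232) at P15 and 1.58 (adjusted p = 0.00211) at P0. Its relative Egr1 had -1.41 ± 0.32 (SE, adjusted p = 0.00501). Jun was called positive at 0.57 (adjusted p = 0.0479), but not without replicate 3, at 0.43 (adjusted p = 0.115). The list median was -0.06. Egr2 was also the only called gene of 10 Schwann cell markers.

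Ccnt1 had the smallest p among genes that rose in WT glands alone. This gene, cyclin T1 of the kinase complex that releases paused RNA polymerase II, lay at 9.80, 9.68, 9.64 and 9.55 in KO P15 glands and 9.55, 9.30, 9.54 and 9.57 in KO P0 glands, against 10.39, 10.32, 10.46 and 10.36 in WT P15 glands and 9.24, 9.23, 9.32 and 9.36 in WT P0 glands. WT P15 lay above all other groups by more than the spread of any group, and the interaction was -0.92 ± 0.11 (SE, adjusted p = 3.55e-05) and -0.91 (adjusted p = 6.49e-05) without replicate 3. The RNA-binding protein gene Hnrnpul1 lay at 10.81, 10.80, 10.79 and 10.78 in KO P15 glands and 10.83, 10.85, 10.85 and 10.93 in KO P0 glands, against 11.24, 11.21, 11.24 and 11.33 in WT P15 glands and 10.67, 10.87, 10.69 and 10.64 in WT P0 glands. Its WT P15 arrays were above the other 12, and the interaction was -0.61 ± 0.08 (SE, adjusted p = 0.000106). Ctdspl2, a phosphatase, had -1.04 (adjusted p = 9.14e-05). Lcor, a corepressor of nuclear receptors, rose in both genotypes but further in WT glands, by 0.47 (adjusted p = 2.32e-06) in KO and 1.04 (adjusted p = 1.08e-12) in WT, for an interaction of -0.57 (adjusted p = 0.000659). Srsf5, a splicing factor, was the opposite case. It lay at 10.60, 10.12, 9.93 and 10.29 in KO P15 glands and 8.29, 9.30, 8.38 and 8.62 in KO P0 glands, against 8.65, 9.11, 9.49 and 8.83 in WT P15 glands and 8.57, 10.11, 8.76 and 8.60 in WT P0 glands, rose in KO glands alone, and had 1.58 ± 0.38 (SE, adjusted p = 0.00737).

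Among genes that rose in KO alone with the smallest p were Rgl2, an exchange factor for Ral, at 0.72 (adjusted p = 0.000144), Smg9 of nonsense-mediated RNA decay at 0.67 (adjusted p = 0.000342), and Timm44 of mitochondrial protein import at 0.82 (adjusted p = 0.000701). Rgl2 lay at 9.46, 9.37, 9.42 and 9.22 in KO P15 glands and 8.46, 8.69, 8.49 and 8.59 in KO P0 glands, against 8.82, 8.92, 8.81 and 8.84 in WT P15 glands and 8.66, 8.85, 8.76 and 8.74 in WT P0 glands, the KO P15 arrays being higher than the other 12. The long non-coding RNA Firre rose in both genotypes and further in KO, by 2.19 (adjusted p = 4.46e-10) in KO and 0.84 (adjusted p = 0.0008) in WT glands, for 1.35 (adjusted p = 0.00291). Hephl1, a multicopper ferroxidase, rose in both genotypes, with a P0 genotype difference of -1.82 (adjusted p = 0.0413), and an interaction of 2.26 ± 0.67 (SE, adjusted p = 0.0294) that was called in 10 of those 16 fits.

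Opposite responses were led by Pcdh18, a protocadherin, which lay at 8.20, 8.39, 8.88 and 7.96 in KO P15 glands and 9.11, 9.56, 9.44 and 9.34 in KO P0 glands, against 9.18, 9.07, 9.20 and 9.28 in WT P15 glands and 8.56, 8.43, 8.86 and 8.57 in WT P0 glands. KO P15 lay below KO P0 and WT P15 above WT P0 in every array, and the genotype difference changed sign between stages, -0.82 (adjusted p = 0.000411) at P15 and 0.76 (adjusted p = 0.00824) at P0. Its interaction was -1.58 ± 0.21 (SE, adjusted p = 9.14e-05), with -1.76 (adjusted p = 4.21e-06) without replicate 3. Spin4, at -1.06 (adjusted p = 0.000246), and Gria3, a glutamate receptor subunit, at -1.73 (adjusted p = 0.000409), had the same form. Ptpn12 was a member of this class, with a KO response of -0.20 (adjusted p = 0.0249) and a WT response of 0.20 (adjusted p = 0.0212). Among genes that were lower in both genotypes, Ptms, parathymosin, fell further in WT glands at 0.88 (adjusted p = 0.000246), and Golm2 and Cpne8 fell further in KO glands at -0.97 (adjusted p = 0.000643) and -0.89 (adjusted p = 0.00044).

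The lists of interferon-induced genes (23 tested), clock genes (17), B lymphocyte (14), T lymphocyte (14), cytotoxic lymphocyte (11), skeletal muscle (20) and erythroid (3) markers held no called gene. The values nearest to the threshold were -0.80 (adjusted p = 0.234) for Oas3, 0.43 (adjusted p = 0.184) for Cry2, 0.70 (adjusted p = 0.247) for Klrd1 and 1.63 (adjusted p = 0.114) for Myl1. Skeletal muscle markers had a median of 1.67, which was 0.38 without the muscle-rich WT P0 replicate 4.

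**Figure D5:**
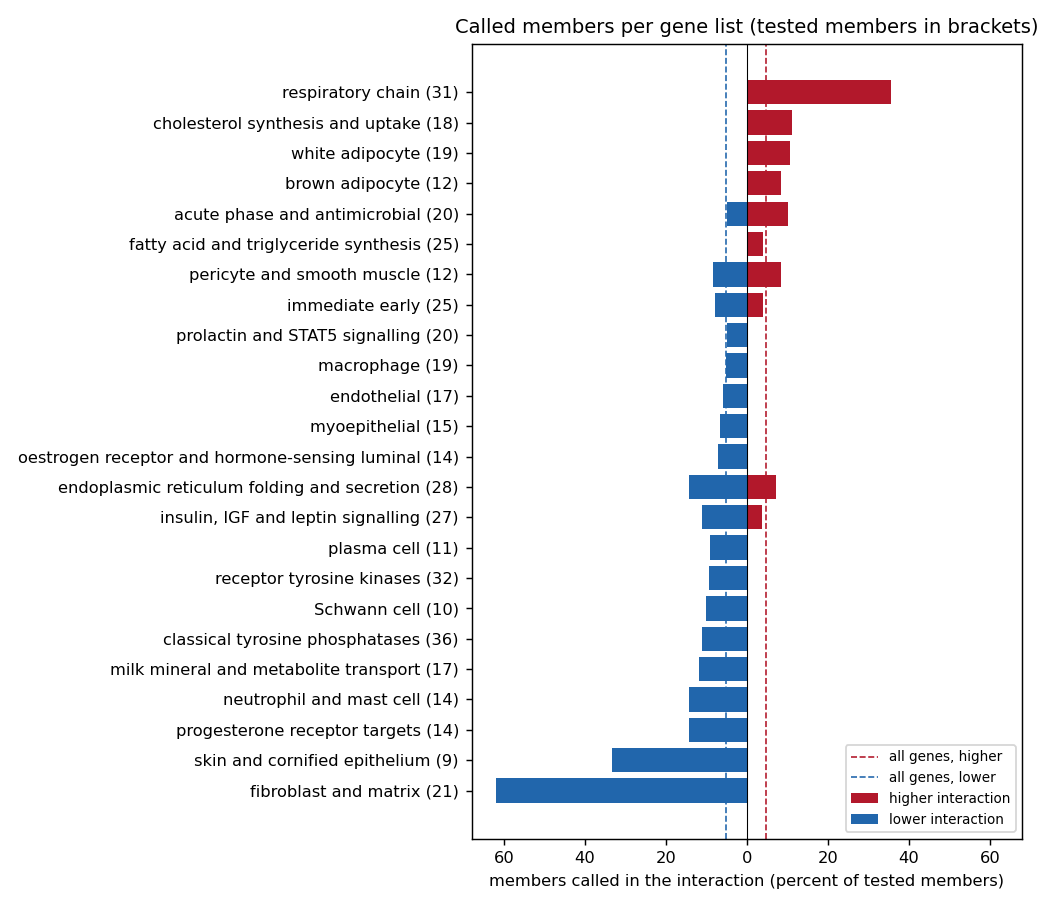
Members called in the interaction as percent of the tested members of each list (horizontal axis, positive calls in red to the right, negative calls in blue to the left), for the 24 lists with any call and with the number tested in brackets. Dashed lines mark the shares over all tested genes, 4.8% positive and 5.3% negative. The respiratory chain list reaches 35.5% to the right and the fibroblast and matrix list 61.9% to the left.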

How the data were processed

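Whole mammary gland RNA was hybridised to Affymetrix whole-transcript arrays, per the labels' protocols. The authors deposited 1 table of log2 intensities for 34760 probe sets on 37 arrays, with values of 2.10 to 13.71. The submitters' processing notes name affy, and how background, summary and normalisation were handled is not given in the sources used here. Precision is limited by the number of arrays. Probe sets were named from the platform annotation: 21640 had 1 gene symbol, 1321 several and 11799 none. The probe set with the highest mean stood for each of 19937 genes, 19855 of which matched the RefSeq table. Genes had to exceed 4.96, the 25th percentile of all values, on 3 or more arrays, which kept 16865 for testing and left out 3072.

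limma 3.58.1 in R 4.3.3 fitted 1 mean per group to all 37 arrays, with two-sided tests and Benjamini-Hochberg adjustment over all tested genes at 0.05. Every adjusted p is limma's. Called means past that threshold. In simulated data with the same 16865 genes, 81% of the genes changed by 1 and 91% of those changed by 1.5 (log2) were recovered in the interaction, and 8% of the calls made were of unchanged genes. The simulation changed 200 genes and drew noise independently for each gene. Effects shared by many genes of an array were not in it, so the 8% is not an error rate of the calls reported here.

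The arrays compared and the 35 gene lists (718 entries, 660 tested) were chosen with earlier results of these data known. Genes were named by a rule: Ptpn1, the 15 called genes with the largest interaction in each direction leaving out predicted genes, up to 4 called members of a list by p (or 2 uncalled, as values), and 3 genes of each response class. Families by symbol, the genes with printed promoters, and Acadl and its family, Ucp1, Csn2, Wap, Atp5b, Sparc, Col1a1 and the further list members with values were picked after their values were seen. Alternatives changed the filter, probe sets, scaling, variance prior, weights, covariates, arrays and replicate block.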

Additional observations from a re-analysis of the deposited data

Results flagged for a closer look

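The day 15 response differed between genotypes in 1704 genes by a test of the difference itself, as reported above. An array far from the other 3 of its group was found in 28 of 548 groups of 4 values examined, 5.1%, where chance gives about 1 in 20 such groups. In KO P15 replicate 1 it was Firre at 9.61. In KO P15 replicate 2 it was Egfr at 9.78. In KO P15 replicate 3 the log2 values that stood apart were Ptpn1 at 8.68, Hephl1 at 9.39, Akr1c18 at 6.69, Fdps at 10.12, Fn1 at 11.49 and Epb42 at 5.26. In KO P0 replicate 1 it was Dctn6 at 10.38. In KO P0 replicate 2 it was Ccnt1 at 9.3. In KO P0 replicate 4 the log2 values that stood apart were Ptprj at 10.37, Klrd1 at 4.95 and Lgals4 at 6.08. In WT P15 replicate 2 the log2 values that stood apart were Retn at 11.77 and pan-epithelial score at 0.6. In WT P15 replicate 3 it was Mtor at 9.29. In WT P15 replicate 4 the log2 values that stood apart were Phospho1 at 5.77 and Alx4 at 6.95. In WT P0 replicate 2 the log2 values that stood apart were Srsf5 at 10.11, Cpa3 at 7.46, Atf4 at 7.85, Sdc1 at 9.14, Ctdspl2 at 8.75 and Firre at 7.85. In WT P0 replicate 3 the log2 values that stood apart were Oas3 at 7.35 and Cd8a at 7.22. In WT P0 replicate 4 the log2 values that stood apart were Ddit3 at 7.28 and skeletal muscle score at 4.4.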

How the results depend on the processing

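The interaction count of 1704 genes (810 positive, 894 negative) became 2568 over all probe sets, with 1548 negative, and 3101 with array weights, with 1575 positive and 1526 negative. A further quantile normalisation gave 1324 positive genes, and a fit to the 16 arrays of P0 and P15 alone gave 578 negative ones. With 1 array left out, the count lay between 1256 (without KO P15 replicate 4) and 2598 (without WT P0 replicate 2), positive calls between 573 (without WT P15 replicate 4) and 1265 (without WT P0 replicate 2), and negative calls between 614 (without KO P15 replicate 4) and 1333 (without WT P0 replicate 2). The cause of these moves was not tested. The count was 1579 with no filter on dim genes, 1692 after centring and 1689 with a trended prior. It was 1876 with lymphocyte and muscle scores, 1689 with the pan-epithelial score and 1535 without 7 arrays held in doubt across the series. Of the 16 arrays compared, those 7 included KO P15 replicate 3 and WT P0 replicate 4 alone. WT P0 replicate 2 was kept in that fit. The same 16 arrays alone gave 1147 genes and kept 87 of 103 named calls, and adding the replicate number as a block to that fit gave 988 (479 positive and 509 negative) and 81. Relative to the 16 arrays alone, the block ended 8 named calls, those of Atf4 (adjusted p = 0.0559), Ddit3 (0.0656), Igfbp4 (0.063), Mcpt4, P4ha3, Phospho1, Tlcd3b and H2ac4, and restored 2, Pmvk and Ptpn9. Same-numbered KO and WT arrays of one stage correlated between -0.141 and 0.384, with 6 of 8 pairs over 0.1, and those of different stages between -0.135 and 0.169, with 1 of 16 over 0.1. In 10 of 16 arrays the closest of the 4 arrays of the other genotype at that stage had the same number. The labels do not say what the numbers stand for, and the main fit did not use them. Whether same-numbered arrays of a stage shared their handling was not tested. No named call changed direction in any of these fits. Uncalled estimates near 0 changed sign for Ptpn1, to -0.067 without the 7 arrays and -0.124 without KO P15 replicate 3, for Epb42, to -0.076 and -0.005 in the same fits, and for Slc4a1, to -0.038 without the 7 arrays and -0.015 without WT P0 replicate 3. With 1 array left out, Ptpn1 lay between -0.124 and 0.981, Epb42 between -0.005 and 0.173 and Slc4a1 between -0.015 and 0.458. Without KO P15 replicate 3, 95 of the 103 named calls were kept, and Adgre1, Cxcl15, Jun, Mlxipl, P2rx5, Phospho1, Pmvk and Snora31 were not. With the pan-epithelial score as a covariate 90 were kept, those lost including Hephl1, Mtor, Ptn, Tpd52, P2rx5, Jun and Pmvk.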
